A study of Mus musculus with 12 samples.

Results

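The quantity described here is the genotype by cocaine interaction in mouse striatum: the response to cocaine in SRF mutants minus the response in controls, each taken as a difference of log2 signals. The signals were made with GCRMA, which corrects background by probe sequence, brings arrays to a common distribution and gives 1 value per probe set. All 12 of the 12 arrays of the series entered it, each holding RNA of 1 sample. The 4 groups, read from the sample titles, were controls given saline, controls given 25 mg/kg cocaine, mutants given saline and mutants given the same dose of cocaine, with 3 arrays each. Per the labels, the mice were female littermates 10 to 15 weeks of age, housed alone and used to handling over 5 days. They were killed 1 hour after an intraperitoneal injection. The tissue was the striatum together with the nucleus accumbens. The titles call the arrays of a group biological replicates, so the spread given here is that between these samples. The labels give neither the part of Srf that was altered, nor the promoter or the cells in which it was altered, and "control" carries no allele name. The description field sorts the arrays into other groups (control saline for 3 arrays, control cocaine for 5 and mutant cocaine for 4) and was not used. The treatment text names cocaine for every array, so saline rests on the titles and the design text.

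Serum response factor (SRF) is a transcription factor that binds the CArG box, the core of the serum response element, in many immediate early genes and in actin cytoskeleton genes. Cocaine blocks dopamine reuptake, and in striatal neurons the resulting receptor and MAP kinase signals switch on immediate early genes such as Fos, Arc and the Egr family without new protein synthesis. Many of these genes can also be driven by CREB, which binds the cAMP response element (CRE).

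The promoters shown are those of Egr2 and Egr4, called for a smaller response in mutants, and of Sstr2 and Tinf2, called for a larger one. Rnd3 and Ppp1r15a, whose differences were not called, are shown because their promoters hold the same motifs. They were picked, so the promoters shown do not tell how the motifs go with the direction of the difference. Arid3b and Mknk2, whose differences were not called, also hold a CArG box. Btg2, whose response read smaller in mutants, holds a CRE. The counts over all risers are given further below. Taf1a, Gpr19 and Zfp948, also called for a larger response, hold neither a CArG box nor a CRE there and are not shown. Each is the 250 bases before an annotated start site, 5′ to 3′ on the gene's strand, from RefSeq (GRCm38.p6). The array files name no build. Capitals mark a CArG box in Egr2 and Rnd3 and a CRE in Sstr2, Tinf2 and Ppp1r15a. The Egr4 stretch holds no CArG box in the exact spelling searched, CCWWWWWWGG with W for A or T, and has no capitals. Spellings with a mismatch were not searched.
Egr2, chr10:67537316-67537565, + strand: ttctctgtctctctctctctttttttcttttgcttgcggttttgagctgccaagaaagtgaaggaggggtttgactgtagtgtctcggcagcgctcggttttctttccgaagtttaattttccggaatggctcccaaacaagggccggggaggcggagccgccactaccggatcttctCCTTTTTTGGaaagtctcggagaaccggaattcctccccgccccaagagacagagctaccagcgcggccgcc
Egr4, chr6:85513590-85513839, − strand: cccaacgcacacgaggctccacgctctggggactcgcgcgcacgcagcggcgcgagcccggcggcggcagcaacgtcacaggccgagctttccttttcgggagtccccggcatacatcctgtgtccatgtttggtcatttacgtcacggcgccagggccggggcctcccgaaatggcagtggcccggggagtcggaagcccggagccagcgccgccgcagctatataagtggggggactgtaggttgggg
Rnd3, chr2:51149112-51149361, − strand: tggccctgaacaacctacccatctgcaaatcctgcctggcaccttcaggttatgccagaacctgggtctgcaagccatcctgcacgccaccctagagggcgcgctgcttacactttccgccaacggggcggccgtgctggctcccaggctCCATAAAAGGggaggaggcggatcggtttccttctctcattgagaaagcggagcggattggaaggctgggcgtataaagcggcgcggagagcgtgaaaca
Sstr2, chr11:113619077-113619326, + strand: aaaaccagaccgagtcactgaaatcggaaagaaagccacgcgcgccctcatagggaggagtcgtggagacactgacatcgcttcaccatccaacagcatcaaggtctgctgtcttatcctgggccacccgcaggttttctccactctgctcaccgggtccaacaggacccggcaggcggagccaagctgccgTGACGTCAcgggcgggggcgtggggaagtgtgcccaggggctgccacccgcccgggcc
Tinf2, chr14:55681818-55682067, − strand: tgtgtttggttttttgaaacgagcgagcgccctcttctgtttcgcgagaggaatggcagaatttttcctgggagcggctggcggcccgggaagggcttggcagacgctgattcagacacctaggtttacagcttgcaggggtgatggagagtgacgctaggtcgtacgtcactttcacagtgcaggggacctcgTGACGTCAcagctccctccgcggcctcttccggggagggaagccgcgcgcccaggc
Ppp1r15a, chr7:45526269-45526518, − strand: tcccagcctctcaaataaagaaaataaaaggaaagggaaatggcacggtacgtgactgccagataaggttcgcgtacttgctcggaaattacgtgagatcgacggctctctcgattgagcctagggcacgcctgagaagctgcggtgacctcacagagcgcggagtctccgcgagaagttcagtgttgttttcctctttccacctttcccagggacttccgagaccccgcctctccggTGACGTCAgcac

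The genotypes bore out the titles, with Srf at 6.97 to 7.21 in the 6 control arrays and at 5.01 to 5.49 in the 6 mutant arrays. Its own response differed between genotypes by 0.30 (95% interval 0.01 to 0.59, adjusted p = 0.983). Here and elsewhere the intervals are not adjusted for the number of probe sets, whereas the p values are. Array medians lay between 3.75 and 3.78, and arrays correlated at 0.986 to 0.993 with others of their group and at 0.976 to 0.990 across groups. Ttr, which marks choroid plexus, read 9.61 in control cocaine replicate 3 against 2.83 and 2.85 in the others of its group, and 5.57 and 5.90 in mutant saline replicate 2 and mutant cocaine replicate 1. It read 4.75 in mutant cocaine replicate 3 and 3.49 or less in the remaining arrays. The other 5 choroid plexus and ependyma markers on the array did not pass the filter. Defining markers of medium spiny neurons were well above background (9 of 9 on the array passed), and 0 of 8 markers of cortical projection neurons did.

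Cocaine responses that were absent in mutants and responses that appeared or grew there were both found, in a small set of genes. Of 11102 probe sets whose log2 signal exceeded 4 in at least 3 arrays, 8 were called for the interaction at a limma adjusted p under 0.05, which is 0.0721% of those tested. A smaller response in mutants was called for 3 probe sets of Egr2 and Egr4, and a larger one for 5 probe sets, those of Sstr2, Taf1a, Tinf2, Gpr19 and Zfp948. An unadjusted p under 0.05 was reached by 553 probe sets (4.98%), 289 of them with a larger and 264 with a smaller response. In RNA from whole tissue, a change in the number of cells of a type and a change in RNA per cell cannot be told apart.

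**Figure D1:**
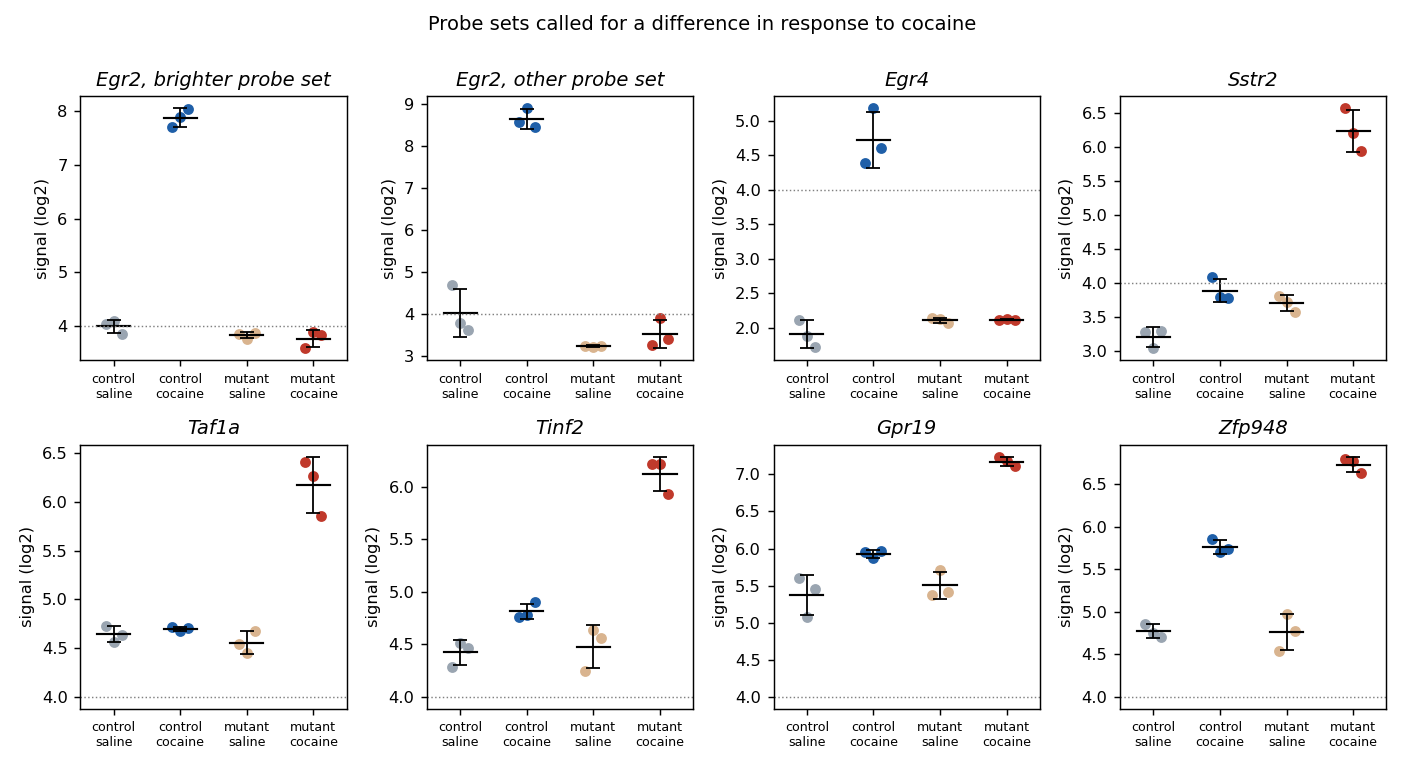
Signal (log2) of the 8 probe sets called for a difference in response, with 1 point per array, the group mean as a line and the SD as bars (n = 3), and the level of 4 used by the filter dotted. Egr2 and Egr4 stand high in cocaine-treated controls only, while the other 5 genes stand highest in cocaine-treated mutants.

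Egr2, a zinc finger transcription factor of the early growth response family, lost its whole measured response. The brighter of its probe sets read 4.04, 4.10 and 3.86 in saline-treated controls and 7.69, 7.88 and 8.04 in cocaine-treated controls. The mutant arrays read 3.86, 3.77 and 3.87 after saline, and 3.59, 3.89 and 3.83 with cocaine. The control groups lay far apart, and the mutant groups overlapped at the level of untreated controls. Outside the cocaine-treated controls only 4.04 and 4.10 exceeded 4, so this probe set needed that group to pass the filter. The response was 14.7-fold in controls and 0.957-fold in mutants, a difference of −3.94 on the log2 scale (95% interval −4.27 to −3.61, adjusted p = 2.63e-08). The second probe set went from 4.69, 3.78 and 3.61 to 8.56, 8.89 and 8.44 in controls. In mutants it went from 3.24, 3.21 and 3.24 to 3.27, 3.91 and 3.39. Its mutant groups did not overlap, but its mutant response of 0.29 was not called (adjusted p = 0.781), and its responses differed by −4.31 (−5.04 to −3.58, adjusted p = 6.86e-05).

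Egr4, the neuronal member of the same family, was also raised in controls alone. It read 2.12, 1.87 and 1.72 in saline-treated controls and 4.39, 5.18 and 4.60 after cocaine. The mutant arrays read 2.13, 2.12 and 2.06 with saline and 2.11, 2.12 and 2.12 with cocaine. These mutant values lie at the bottom of the array's range, so a small response below detection would not show. The responses differed by −2.82 (−3.31 to −2.32, adjusted p = 7e-05), and leaving out single arrays gave −2.99 to −2.59, called in all 12 fits. These fits kept the probe sets that passed the filter on all 12 arrays. With the filter applied anew, Egr4 would not be tested without any 1 of the cocaine-treated controls. Egr4 passed the filter only through the cocaine-treated controls, and with values under 4 raised to 4 its difference was −0.73 and not called (adjusted p = 0.504). A further family member on the array, Egr3, stayed below the filter in all groups (means of 1.58 to 1.75).

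Other responders had a smaller response in mutants without passing the test over all probe sets. Egr1, another zinc finger gene of the family, read 9.63, 9.33 and 9.16 in saline-treated controls and 10.64, 10.82 and 10.68 after cocaine. The saline-treated mutants read 9.17, 9.23 and 9.38 and the cocaine-treated mutants 9.97, 9.84 and 9.88. Cocaine raised it in both genotypes, but every cocaine-treated mutant lay below every cocaine-treated control. The response was 2.54-fold in controls and 1.55-fold in mutants, and the difference of −0.71 (−1.05 to −0.37) had an adjusted p of 0.32.

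Rnd3, whose product loosens actin stress fibres, followed the pattern of Egr1. It read 4.81, 4.43 and 4.53 in saline-treated controls and 5.67, 5.99 and 5.74 after cocaine. The mutants read 4.42, 4.59 and 4.75 with saline and 5.11, 5.16 and 5.08 with cocaine, below all cocaine-treated controls. Its difference was −0.68 (−1.04 to −0.31, adjusted p = 0.367), and that of its second probe set −0.91. Shisa2, a regulator of receptor maturation, rose by 0.78 in controls and read 0.22 in mutants, a difference of −0.56 (−0.85 to −0.28, adjusted p = 0.341). The mean signal of Shisa2 over all arrays was 3.66, under the filter level of 4, where GCRMA compresses differences. Btg2, an antiproliferative gene, rose by 2.00 and 1.08 (difference −0.93, −1.68 to −0.18, adjusted p = 0.903). Hbegf, a ligand of the EGF receptor, read 1.00 in controls and 0.31 in mutants (difference −0.69, −1.30 to −0.07, adjusted p = 0.98, or −0.44 without mutant saline replicate 3), and its second probe set, which rose by 0.66 in controls, differed by −0.26.

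The immediate early genes Fos, Arc and Nr4a1 also had smaller log2 responses in mutants, but with a different arrangement of the group levels. Fos, a subunit of AP-1, read 5.17, 3.71 and 4.14 in saline-treated controls and 5.65, 5.18 and 6.78 in saline-treated mutants. After cocaine it read 8.06, 8.80 and 8.64 in controls and 9.60, 9.68 and 9.25 in mutants. The mutants were higher in both conditions with no overlap, although neither genotype difference was called (1.53 after saline, adjusted p = 0.0588, and 1.01 after cocaine, adjusted p = 0.198). Mutant saline replicate 3 was the highest of its group for Fos, Fosb, Arc, Junb and Dusp1, and without it the difference in response for Fos moved from −0.52 to −0.07.

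Arc, an activity-regulated postsynaptic gene, read 4.84, 4.24 and 4.23 in saline-treated controls and 5.66, 5.08 and 6.40 in saline-treated mutants. After cocaine it read 7.77, 8.22 and 8.09 in controls and 8.44, 8.74 and 8.06 in mutants. The saline groups did not overlap and the cocaine groups did. The genotype difference was 1.27 after saline (adjusted p = 0.0302) and 0.39 after cocaine (adjusted p = 0.553), which subtract to a difference in response of −0.89 (−1.76 to −0.02), or −0.55 without mutant saline replicate 3.

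Nr4a1, an orphan nuclear receptor, read 6.44, 6.08 and 6.02 in saline-treated controls and 7.66, 7.23 and 7.61 in saline-treated mutants. After cocaine it read 8.94, 9.23 and 9.05 in controls and 9.70, 9.91 and 9.72 in mutants. It was called higher in mutants in both conditions, by 1.32 after saline and by 0.70 after cocaine, and its difference in response was −0.61 (−1.03 to −0.19, adjusted p = 0.722). For these genes the direction depends on the scale. On the linear signal scale the gain with cocaine was 348 in controls and 669 in mutants for Fos, 241 and 291 for Arc, and 467 and 697 for Nr4a1, so the mutant gain was the larger. For Egr1 the linear gains were 1016 and 339, for Rnd3 31.6 and 10.5 and for Btg2 38.9 and 15.9, smaller in mutants on both scales.

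**Figure D2:**
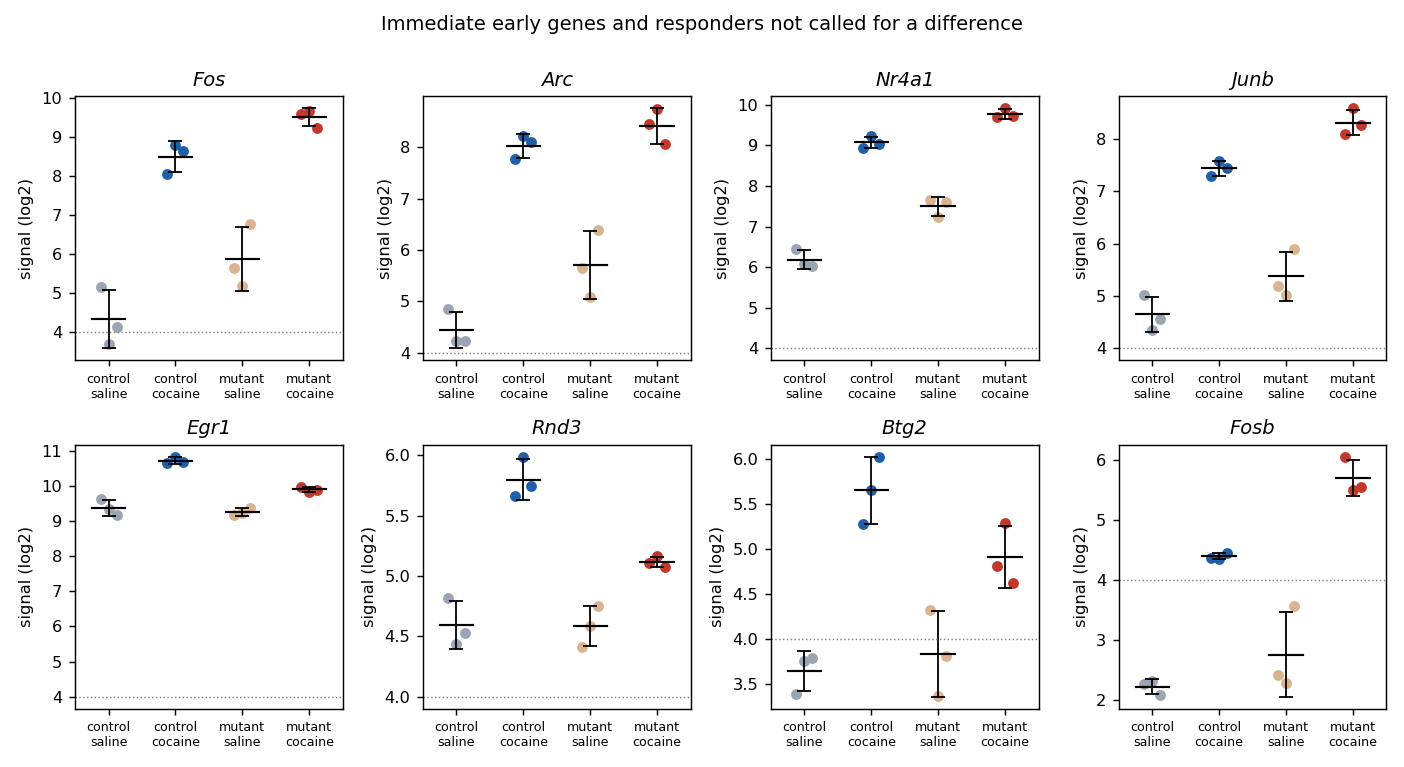
Signal (log2) of 8 genes that responded to cocaine and were not called for a difference in response, with 1 point per array, the group mean as a line and the SD as bars (n = 3), and the level of 4 used by the filter dotted. Fos, Arc and Nr4a1 start higher in mutants, while Egr1 and Rnd3 start level and end lower.

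Of the 7 genes called for the interaction, the 5 with a larger response stood above all other groups in cocaine-treated mutants, and all but Sstr2 overlapped between genotypes after saline. Sstr2, a somatostatin receptor that inhibits adenylyl cyclase, read 3.28, 3.05 and 3.30 in saline-treated controls and 4.08, 3.80 and 3.78 after cocaine. The saline-treated mutants read 3.81, 3.73 and 3.58 and the cocaine-treated mutants 6.57, 6.20 and 5.94. The cocaine-treated mutants stood above all other arrays. Elsewhere only the value of 4.08 exceeded 4, so Sstr2 needed the cocaine-treated mutants to pass the filter. The response was 1.60-fold in controls, short of the threshold (adjusted p = 0.0726), and 5.77-fold in mutants, a difference of 1.85 (1.41 to 2.29, adjusted p = 0.00146).

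Taf1a encodes a subunit of SL1, the promoter-binding factor of RNA polymerase I. It read 4.72, 4.56 and 4.64 in saline-treated controls and 4.72, 4.67 and 4.70 after cocaine, with overlap. Levels in mutants were 4.54, 4.44 and 4.68 without cocaine, and 6.41, 6.26 and 5.85 with it. The response was 1.04-fold in controls and 3.07-fold in mutants, a difference of 1.56 (1.19 to 1.94, adjusted p = 0.00146). The other 6 members of an RNA polymerase I initiation list that were tested had differences of −0.04 to 0.28, none of them called.

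Tinf2 encodes TIN2, a shelterin protein at telomeres. It read 4.29, 4.52 and 4.46 in saline-treated controls and 4.76, 4.78 and 4.90 after cocaine. The mutants read 4.24, 4.63 and 4.56 with saline and 6.21, 6.22 and 5.93 with cocaine. The control groups were also apart, but by 0.39 (adjusted p = 0.351), against a called rise of 1.64 in mutants. The responses differed by 1.25 (0.90 to 1.60, adjusted p = 0.00726), whereas the other 4 shelterin and telomere genes tested had differences of −0.31 to 0.15.

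Gpr19, an orphan G protein-coupled receptor, read 5.60, 5.07 and 5.45 in saline-treated controls and 5.95, 5.87 and 5.96 after cocaine. The mutants read 5.38, 5.71 and 5.42 with saline and 7.23, 7.18 and 7.11 with cocaine. Its response was 1.47-fold in controls (adjusted p = 0.109) and 3.18-fold in mutants, a difference of 1.12 (0.73 to 1.50, adjusted p = 0.0436). Zfp948, a zinc finger gene, differed from the other 4 genes in that its rise in controls was also called (adjusted p = 0.000253). The control groups of Sstr2, Tinf2 and Gpr19 lay apart too, higher after cocaine, without a call. It read 4.86, 4.75 and 4.71 with saline and 5.86, 5.70 and 5.73 with cocaine in controls, and 4.54, 4.97 and 4.78 and then 6.79, 6.77 and 6.63 in mutants. The rise was 1.99-fold in controls and 3.91-fold in mutants, a difference of 0.98 (0.66 to 1.30, adjusted p = 0.0309). Neither call held with the replicate block, and of the fits without 1 array, 10 of 12 lost that of Gpr19 and 9 of 12 that of Zfp948.

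The next genes in order of p, none of them called, mostly had larger responses in mutants too. Hspa14, which encodes a ribosome-associated chaperone of the Hsp70 family, read 0.12 in controls and gained 0.97 in mutants (a difference of 0.85, 0.54 to 1.17, adjusted p = 0.0768). Vegfa, the angiogenic growth factor, rose by 0.43 and 1.09 (difference 0.66, 0.41 to 0.91, adjusted p = 0.0877). Gclc, the catalytic subunit of the enzyme that limits glutathione synthesis, read 0.14 in controls against a rise of 0.95 in mutants (difference 0.82, adjusted p = 0.091). These 3 genes were called when the filter was set at a log2 signal of 6.

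Ppp1r15a, which encodes a phosphatase subunit that reverses the phosphorylation of eIF2α, read 4.37, 4.62 and 4.48 in saline-treated controls and 5.03, 5.08 and 5.33 after cocaine. The mutants read 4.20, 4.39 and 4.66 with saline and 5.81, 6.19 and 6.14 with cocaine. Saline levels of the genotypes overlapped and cocaine levels did not. The difference in response was 0.97 (0.56 to 1.39, adjusted p = 0.178). Usp38, a deubiquitinase, and Mest, an imprinted gene, differed by 1.07 (adjusted p = 0.0985) and 0.87 (adjusted p = 0.306). The probe sets of Tiparp, a target of the aryl hydrocarbon receptor, disagreed in size, with 0.35 for the brightest and 0.56 and 0.95 for the other two (adjusted p of 1, 0.983 and 0.178).

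Among these next genes, 3 had responses of opposite sign in the genotypes. Slc7a10, an astrocyte amino acid transporter, read 0.38 in controls and −0.18 in mutants (difference −0.56, −0.80 to −0.31, adjusted p = 0.2). It was 0.68 higher in mutants after saline (adjusted p = 0.000398) and 0.13 after cocaine. Trp53inp1, a p53 target gene, read −0.38 and 0.24 (difference 0.62, 0.34 to 0.91), and the RNA demethylase Alkbh5 read −0.26 and 0.57 (difference 0.82, 0.44 to 1.21). Their adjusted p values were 0.298 and 0.304.

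**Figure D3:**
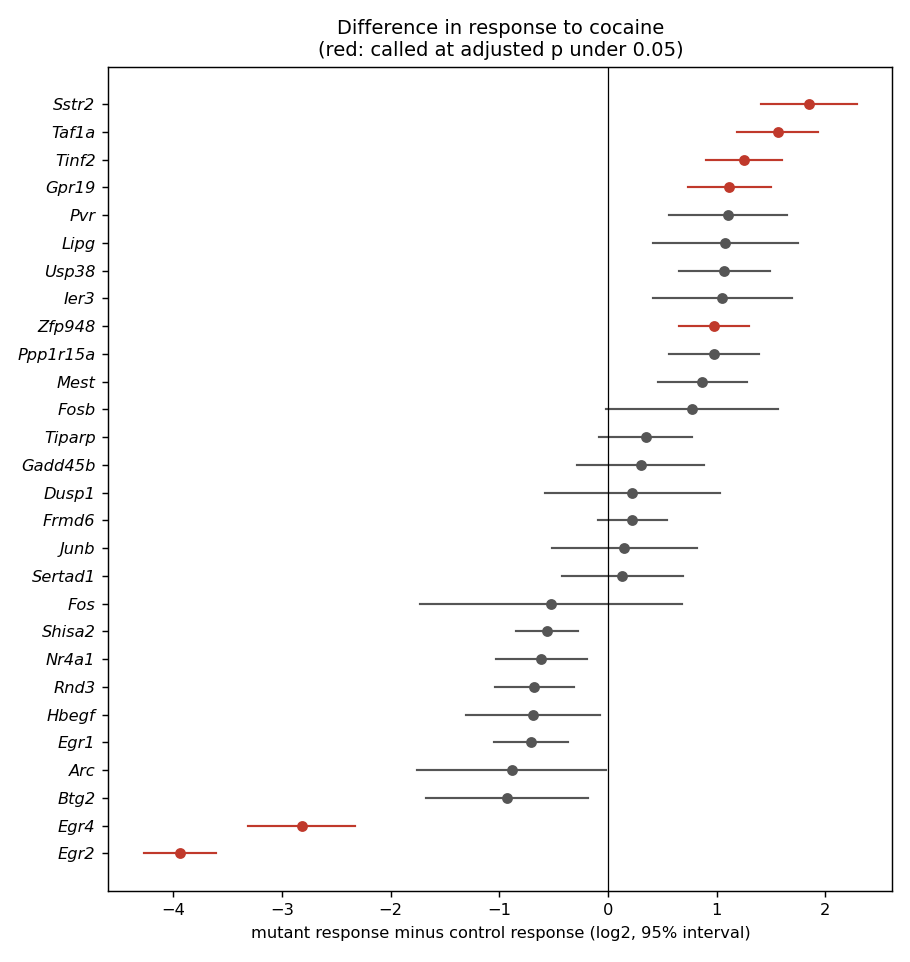
Difference in response (mutant minus control, log2) of 28 genes that responded to cocaine, with the 95% interval of each as a bar and the 7 called genes in red. Intervals of 11 genes lie above 0, those of 9 below 0 and those of 8 extend over 0.

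A wider view came from all genes that cocaine changed averaged over both genotypes, a choice that in this balanced design is orthogonal to the interaction and to both genotype contrasts. Averaged over genotypes, 234 probe sets were called higher (2.11%) and 23 lower (0.207%), which gave 154 risers and 14 fallers with 1 probe set per gene. Most risers responded more in mutants: 121 of 154 (78.6%) had a larger response there, and the median response was 0.39 in controls against 0.69 in mutants. By the same measure, taken in the direction of each gene's averaged response, 54.6% of all genes had a larger response in mutants. The median difference in response was 0.24 (quartiles 0.04 and 0.50), against −0.01 over all 6651 genes tested. Intervals excluded 0 for 65 risers (42.2%), of which 56 lay above and 9 below, against 4.84% of all genes. Both contrasts use the same variance estimate of a gene, so the choice of risers is not independent of interval width. The median distance from the centre to an end of the interval was 0.35 for risers and 0.32 over all genes. Of the 154 risers, 4 exceeded a signal of 4 in 1 group only, 2 of them in cocaine-treated controls and 2 in cocaine-treated mutants. This count leaves out risers such as Egr2 and Sstr2, which needed 1 group to pass the filter but exceeded 4 on an array of another. How many risers were of that kind was not counted.

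The mean signal of the risers put the same pattern on single arrays. It was 5.93, 5.85 and 5.85 in saline-treated controls and 5.99, 5.97 and 6.10 in saline-treated mutants. After cocaine it was 6.50, 6.57 and 6.47 in controls and 6.93, 6.93 and 6.79 in mutants. The genotypes did not overlap in either condition, and their means lay further apart after cocaine (6.52 against 6.88) than after saline (5.88 against 6.02). Risers with a mean signal above 6 (87 genes) had a median difference of 0.21 and those up to 6 (67 genes) one of 0.33, both above 0. Without control cocaine replicate 3, the array with the highest Ttr, the median difference over the risers of that fit was 0.21 and 6 probe sets were called for the interaction.

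**Figure D4:**
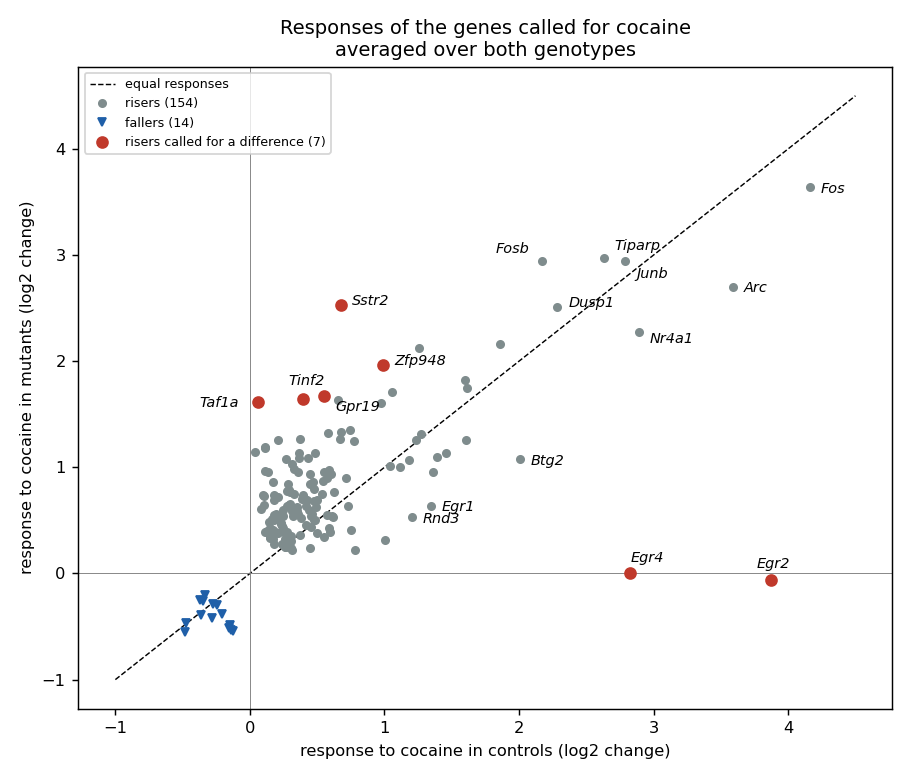
Response to cocaine in mutants against that in controls (log2 change) for the 154 risers and 14 fallers, with the dashed line marking equal responses. Risers with small control responses lie mostly above the line, Egr2 and Egr4 lie on the horizontal axis, and Fos, Junb and Tiparp lie near the line.

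The 9 risers whose interval lay below 0 were Egr2, Egr4, Btg2, Arc, Egr1, Hbegf, Rnd3, Nr4a1 and Shisa2. The 56 above 0 held, beside the called genes, Ier3 (1.05, 0.41 to 1.69), an early response gene that protects from apoptosis, and Pvr (1.11, 0.56 to 1.65), a nectin-like adhesion receptor. Pvr read 3.82, 3.77 and 3.59 in saline-treated controls and 3.94, 3.64 and 3.73 after cocaine, with overlap. The mutant levels were 3.63, 3.87 and 3.29 with saline and 4.85, 5.05 and 4.33 with cocaine, the latter above every other array. All those other arrays lay under 4, so Pvr passed the filter only through the cocaine-treated mutants. Dnajb1, an Hsp40 cochaperone, read 0.37 in controls against a rise of 1.26 in mutants (difference 0.89, 0.38 to 1.40). Crem, whose early promoter gives the CREB repressor ICER, read 0.48 in controls against a rise of 1.13 in mutants (difference 0.65, 0.03 to 1.27), and its second probe set differed by 1.32 (0.56 to 2.07). The adjusted p values of these 4 genes were 0.32 or higher.

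The remaining 89 of the 154 risers had intervals over 0. Junb, an AP-1 subunit, read 5.02, 4.36 and 4.57 in saline-treated controls and 7.29, 7.57 and 7.45 after cocaine. The mutant levels were 5.19, 5.02 and 5.91 with saline and 8.10, 8.59 and 8.26 with cocaine. The rise was 6.92-fold in controls and 7.68-fold in mutants, a difference of 0.15 (−0.52 to 0.82). Per1, a clock gene, differed by 0.02 (−0.35 to 0.39), Plk2, a kinase that weakens synapses after activity, by −0.02 (−0.27 to 0.23), and the FERM protein gene Frmd6 by 0.22 (−0.10 to 0.54). For Dusp1, a MAP kinase phosphatase, the interval was wider (0.23, −0.58 to 1.03), as it was for Gadd45b (0.30, −0.29 to 0.89) and Sertad1 (0.13, −0.43 to 0.69). Over all 154 risers, 114 intervals lay within −1 to 1, so a 2-fold difference in response lay outside them, while Fos (−1.73 to 0.69) and Fosb (−0.02 to 1.57) were not measured that closely. Fosb, which accumulates with repeated cocaine, read 4.38, 4.36 and 4.45 in cocaine-treated controls and 6.06, 5.51 and 5.55 in cocaine-treated mutants. Its saline levels of 2.09 to 3.57 lay under 4, and with such values raised to 4 its difference became 1.31 and was called.

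The difference in response can be split into the genotype difference after cocaine minus that after saline. Over all probe sets, 331 differed between genotypes after saline (2.98%) and 465 after cocaine (4.19%). Among the 154 risers, 10 were called higher and 2 lower in mutants after saline, and 61 higher and 7 lower after cocaine. The 10 were Arc, Nr4a1, Midn, Irs2, Chmp1b, Plk2, Tmem165, Nup98, Fam43a and Lipg, and the 2 were Pfkfb3 and Cbr3. The 7 lower after cocaine were Egr2, Egr4, Egr1, Rnd3, Shisa2, Rgs2 and Pfkfb3. The median genotype difference over the risers was 0.07 after saline and 0.39 after cocaine.

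Most enlarged responses therefore lay in the cocaine-treated group rather than in a lower starting level. Taf1a differed between genotypes by −0.09 after saline and by 1.48 after cocaine, Tinf2 by 0.06 and 1.31, Gpr19 by 0.13 and 1.24, Zfp948 by −0.01 and 0.97 and Ppp1r15a by −0.07 and 0.90. Sstr2 differed by 0.50 after saline (adjusted p = 0.0951) and by 2.35 after cocaine, and its saline groups did not overlap. Lipg, endothelial lipase, departed from this: it read 2.33, 2.45 and 2.28 in saline-treated controls, 2.51, 2.53 and 2.35 in cocaine-treated controls, 3.91, 3.45 and 4.64 in saline-treated mutants and 5.03, 5.41 and 5.14 in cocaine-treated mutants. It was thus higher in mutants before cocaine (1.65, adjusted p = 0.00109) and rose by 1.19 in mutants against 0.11 in controls. Egr1 and Rnd3 differed by −0.11 and −0.01 after saline and were called lower after cocaine by −0.82 and −0.68.

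**Figure D5:**
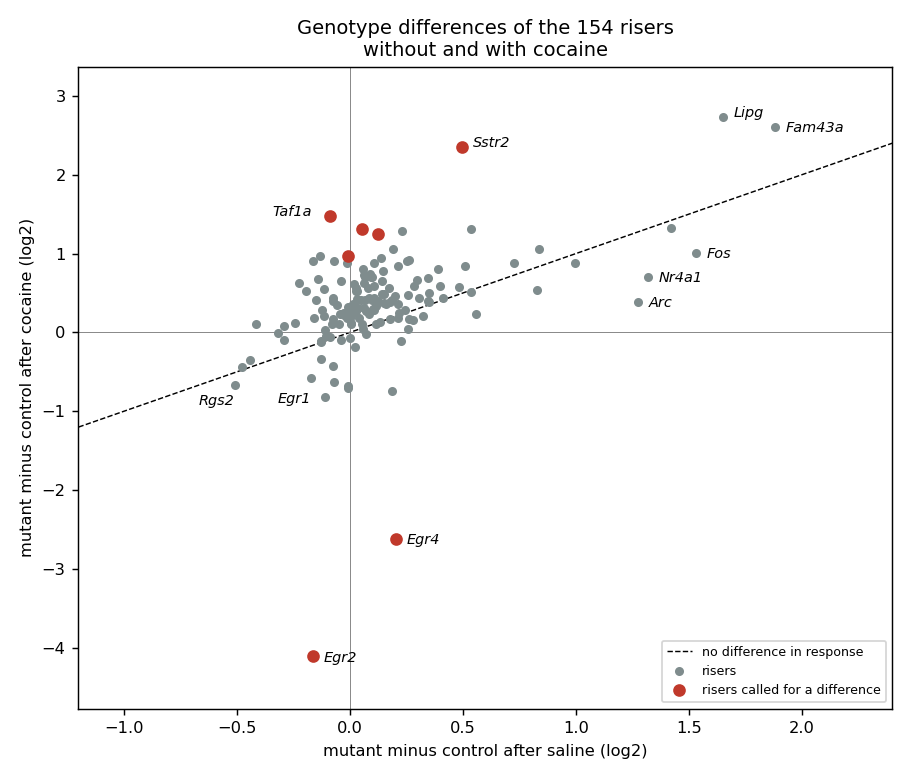
Genotype difference (mutant minus control, log2) of the 154 risers after cocaine against that after saline, with the dashed line marking equal differences and thus no difference in response. The called genes and most risers spread along the vertical axis, and Fos, Arc and Nr4a1 lie to the right of 1 on the horizontal axis and below the line.

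The sets of genes that passed the test within each genotype differed in size. In controls 50 probe sets were called, all higher (0.45%), and in mutants 195 higher (1.76%) and 18 lower (0.162%). Of those higher, 40 were shared, which is 80% of the control calls and 20.5% of the mutant calls. The 2 responses share no array. Of the 155 called higher in mutants only, the interaction was called for 4 and had an unadjusted p under 0.05 for 102. Of the 10 called in controls only, it was called for 3 and passed the unadjusted threshold for 6. A call in 1 genotype alone therefore often came without a called difference. Both sets were chosen by the 2 responses that the interaction subtracts, so the choice itself favours small unadjusted p values in them. The 213 calls in mutants fell to 131 without mutant cocaine replicate 1 and to 141 without mutant cocaine replicate 2.

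Gene lists chosen with earlier results in view were read by their counts beside the 0.0721% called over all probe sets. Of all 6651 genes tested, 3183 had a difference above 0 and 3468 one below. Of 10 tested SRF-bound immediate early genes, 9 rose in controls and 6 in mutants (Fos, Fosb, Junb, Egr1, Arc and Nr4a1). The interaction was called for 2, Egr2 and Egr4, 7 values lay below 0 and the median was −0.57. Among 10 tested immediate early transcription factors the same 2 genes were called, and the median was −0.50. Of 19 activity-regulated effectors, 0 were called for the interaction, 12 lay above 0 and the median was 0.11. MAPK feedback regulators (8 tested) had 0 called and a median of −0.08, with Dusp6, an ERK phosphatase, rising by 1.61 in controls and 1.25 in mutants (difference −0.35, −0.79 to 0.08, or −0.20 without mutant saline replicate 3). Nab2, a corepressor of Egr proteins, rose by 0.60 in controls and read 0.39 in mutants (difference −0.21, −0.49 to 0.07).

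Genes bound by CREB (9 tested) had 0 called and a median difference of 0.09, with 5 rising in controls and 6 in mutants. Of 13 glucocorticoid-responsive genes, 11 lay above 0 with a median of 0.23 and 0 were called. Their mean signal was 6.76 to 7.03 in saline-treated mutants and 7.26 to 7.39 after cocaine, against 6.85 to 7.07 and 7.09 to 7.22 in controls, so the cocaine-treated genotypes did not overlap. That was not particular to this list. After cocaine, mutants also lay above controls without overlap for CREB-bound genes, activity-regulated effectors and MAPK feedback regulators. For SRF-bound immediate early genes they lay below, and other lists overlapped, such as the Egr corepressors. SRF targets of the actin cytoskeleton (25 tested) had 7 called between genotypes after saline, 6 of them lower in mutants (2.98% over all probe sets), and 0 called for cocaine in either genotype or for the interaction, whose median was −0.01. The 1 called higher was Itga5, an integrin subunit, whose change with cocaine was −0.04 in controls and −0.92 in mutants (difference −0.88, −1.61 to −0.14, adjusted p = 0.931). Dopamine signalling genes (7 tested) had 0 called, with differences of −0.15 to 0.14. Chaperone and stress response genes (13 tested) had 0 called and a median of 0.08, with Dnajb1 and Atf4 rising in mutants and not called in controls.

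Below the filter, the prostaglandin synthase Ptgs2, a classical immediate early gene, had group means of 2.79 and 2.84 in controls after saline and cocaine and of 2.88 and 4.01 in mutants. A second Ptgs2 probe set read 2.61 and 2.64 in controls and 2.61 and 3.30 in mutants. Neither was tested, and both lie where GCRMA compresses differences.

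The 14 fallers changed little. Their median response was −0.28 in controls and −0.41 in mutants, and 10 of 14 fell more in mutants (71.4%, against 54.6% of all genes with a larger response there). In controls 0 were called and in mutants 5, Cnnm3, Zfp553, Mcat, Smn1 and Tti1. The largest difference was that of Cnnm3, a magnesium transport protein, at −0.42 (−0.75 to −0.09), and 4 of the 14 intervals excluded 0.

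Motifs were counted in promoter windows of 300 letters, 250 before to 50 after a start site, on both strands, as a description only. The CArG box was spelled CCWWWWWWGG, with W for A or T. It was in 1.78% of the 5445 tested genes that had a window in the RefSeq table (1.81% of all genes in the table). Among risers it was in 4 of 126 (3.17%): Arid3b, Egr2, Mknk2 and Rnd3. It was in 0 of 50 risers whose interval lay above 0 and in Egr2 and Rnd3 among 6 whose interval lay below 0. Besides the box shown, Egr2 holds CCATATATGG at chr10:67537797-67537806, before a later start site. The CRE, spelled TGACGTCA, was in 3.95% of tested genes and in 16 of 126 risers (12.7%). By difference in response, it was in 8 of 50 risers above 0 (16%), in 7 of 70 with intervals over 0 (10%) and in 1 of 6 below 0 (16.7%), Btg2. Of the 5 genes called for a larger response, Sstr2 and Tinf2 hold it, 58 and 56 bases before the start site. The EGR site, spelled GCGTGGGCG or GCGGGGGCG, was in 8.58% of tested genes and in 10.3% of risers, among them Sstr2 and Gpr19. A match is not a measured binding site, and other spellings and sites outside the windows were not counted.

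The interaction was called for 0 of the tested members of 7 cell type marker lists. With 0.0721% called over all probe sets, lists this short would hold few or no calls in any case. Over all 6651 genes tested, 3183 differences lay above 0 and 3468 below. Over 10 astrocyte markers the median difference was −0.05, and the array means ranged from 6.98 to 7.26 over all groups. Gfap fell by 1.02 in mutants (adjusted p = 0.0303) and read −0.20 in controls, with a difference of −0.82 (adjusted p = 0.903). Mutant minus control, Gfap read 0.80 after saline without overlap (adjusted p = 0.076) and −0.02 after cocaine. A second Gfap probe set, with a mean signal of 3.68, was 1.27 higher in mutants after saline (adjusted p = 0.00203) and differed by −0.94 in response. Of 9 microglia markers 8 lay below 0, with a median of −0.15, and Tyrobp, a microglial signalling adaptor, differed by −0.30 (−0.53 to −0.07). Of 9 oligodendrocyte markers 6 lay below 0, with a median of −0.03, and the myelin gene Mag differed by −0.56 (−0.97 to −0.16). Ttr differed by −1.62, with an interval of −5.97 to 2.72. Over 9 medium spiny neuron markers the median difference in response was −0.02, and the mean signal was 9.70 to 9.84 in mutants against 9.32 to 9.50 in controls. Much of that gap was Pdyn, the prodynorphin gene, which was 2.10 higher in mutants after saline, while the median over the 9 was 0.23 and Rgs9 and Ppp1r1b read −0.35 and −0.22. The part of any of these markers in the differences in response was not tested.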

How the data were processed

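Gene expression was measured in 12 striatal samples, 1 Affymetrix array each. The deposited values are log2 signals that the authors computed with GCRMA (R 2.4.1), as the submitters' processing notes state. Its options and the log base are not given; the base was read from the range of values, 1.26 to 13.1. GCRMA compresses dim values, so folds from levels near 4 depend on its background correction, and the number of arrays limits precision. Groups came from titles. Of 22690 probe sets, 64 control probe sets were left out and 11102 passed the filter. Symbols came from the platform annotation.

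Tests were run with limma 3.58.1 (R 4.3.3): a mean per group, all 12 arrays in 1 fit, empirical Bayes moderation, two-sided, with Benjamini-Hochberg adjustment over all 11102 probe sets and calls at an adjusted p under 0.05. Intervals are 95% and unadjusted. A gene is its brightest probe set with 1 symbol. The procedure was tested on simulated data. Members and lists were chosen with earlier results of these data known. Genes were named by rule: Srf, those called, the 15 largest responders, the 10 risers with the smallest and the 10 with the largest difference, the 10 next in p, and called list members with each list's brightest uncalled one; list members without a value in the text are covered by their list's counts. Other names spell out a count or, as Ptgs2 and Egr3, were chosen after their values were seen. Alternatives varied the filter, floor, normalization, variance model, array weights, replicate block, scale, probe set and single arrays.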

Additional observations from a re-analysis of the deposited data

Results flagged for a closer look

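The 7 genes called for the interaction are the results that differ between the 2 genotypes by a test of the difference itself (limma, adjusted over all probe sets). The mutant response minus the control response was −4.31 and −3.94 for the Egr2 probe sets and −2.82 for Egr4. It was larger in mutants by 1.85 for Sstr2, by 1.56 for Taf1a, by 1.25 for Tinf2, by 1.12 for Gpr19 and by 0.98 for Zfp948. Each direction held in every fit that left out 1 array. Egr4 passed the filter on low signals only through the cocaine-treated controls, and with values under 4 raised to 4 its difference was −0.73 and not called (adjusted p = 0.504). Egr2 and Sstr2 also needed the group where they were high to reach 3 arrays above 4. They kept their calls with values under 4 raised to 4.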

How the results depend on the processing

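The interaction was called for 8 probe sets as reported, for 5 without the filter (Egr2, Egr4, Sstr2 and Taf1a kept their calls) and for 2 when a signal above 4 was required in 6 arrays, which removes Egr2, Egr4 and Sstr2 from testing. With the filter at 6 it was called for 7, which kept Egr2, Gpr19 and Zfp948 and added Gclc, Hspa14 and Vegfa. Egr4, Sstr2, Taf1a and Tinf2 were not among them. It was called for 8 with dim values raised to 4, without Egr4 and with Fosb. The count was 8 after quantile normalization, 8 after centring, 10 with a trend and robust moderation and 9 with array weights. Leaving out single arrays gave 6 to 9 calls, and Egr2, Egr4, Sstr2, Taf1a and Tinf2 were called in all 12 of these fits. The filter was not applied anew in them, and Egr4 would fail it without any 1 of the cocaine-treated controls. With the replicate block 7 were called, without Gpr19 and Zfp948 and with Ppp1r15a; same-numbered arrays correlated from −0.14 to 0.12 in their deviations, and 2 of 12 arrays correlated best with their own number, so the numbers were not taken to pair samples. Array weights raised the calls in controls from 50 to 88. Leaving out single arrays gave 40 to 56 calls in controls, 131 to 240 in mutants and 187 to 248 for the averaged response, and a median over risers of 0.21 to 0.33. The sign of some differences near 0 turned when an array was left out, within −0.0833 to 0.0214 for Plk2, −0.0936 to 0.14 for Per1, −0.0507 to 0.38 for Sertad1, −0.0353 to 0.42 for Junb and −0.11 to 0.61 for Dusp1, and Ttr ranged from −2.76 to 0.63, its sign resting on control cocaine replicate 3. The cause of these changes was not tested.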
